A study of Mus musculus with 8 samples.

Results

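The 33 genes described here encode the machinery that brings pyruvate into mitochondria, turns it into acetyl-CoA and runs the citrate cycle, with the shuttle enzymes that exchange malate and aspartate with the cytosol. They were chosen by name, and all 33 were found among the 30153 gene rows of the deposited table. RNA came from kidney tissue of mice (strain C57/BL6) with a transgene for the type 1 human angiotensin receptor, in its haplotype II form (Hap-II). The series' title calls such animals hypertensive. Libraries from 4 aged Hap-II mice on a western diet were compared with libraries from 4 adult Hap-II mice on the same diet. Every animal carried the transgene and ate the western diet, so the effect of neither can be read from these groups, and no group without the transgene or on another diet was analysed here. The labels give age only as adult or aged, and they name neither sex nor the promoter that drives the transgene.

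In mitochondria, pyruvate crosses the inner membrane through the carrier MPC1-MPC2 and is oxidised by the pyruvate dehydrogenase complex, which kinases switch off and phosphatases switch on. The citrate cycle then oxidises acetyl-CoA and hands electrons to the respiratory chain. The kidney is rich in mitochondria, above all in proximal tubule and thick ascending limb cells that power salt transport, and the proximal tubule also makes glucose from lactate, pyruvate and amino acids.

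Values are TPM, a relative abundance corrected for transcript length and scaled to the library total, so levels of different genes can be compared, but read depth is unknown and no counting interval can be given. The column totals lay between 924798 and 950974 TPM. Kidney identity was checked on marker lists: all 7 proximal tubule and all 3 thick ascending limb markers reached a mean of 1 TPM or more. The 13 mitochondrially encoded protein genes held 26.8% to 46.9% of the TPM scale in aged libraries, against 19.6% to 26.1% in adult libraries, which lowers the TPM of every other gene in proportion. Transcripts of 4 Y-linked genes split each age group alike, with a sum of 34.7 to 50.6 TPM in replicates 3 and 4 and of 0.485 to 2.30 TPM in replicates 1 and 2. In bulk kidney, fewer cells of a type and less RNA per cell cannot be told apart.

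All 33 transcripts were detected in every library, and 17 averaged 100 TPM or more. Together they summed to 4540, 6405, 3921 and 5054 TPM in aged replicates 1 to 4, against 7189, 6912, 5298 and 5286 TPM in adult replicates 1 to 4. These are 0.392% to 0.640% of the TPM scale in aged kidneys and 0.529% to 0.719% in adult kidneys. Counted against the TPM outside the 13 mitochondrially encoded genes, the share was 0.854% ± 0.0936 in aged and 0.873% ± 0.119 in adult kidneys (SD, n = 4 each), a difference smaller than the spread within either group. In the sentences below, library values run from replicate 1 to replicate 4.

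**Figure D1:**
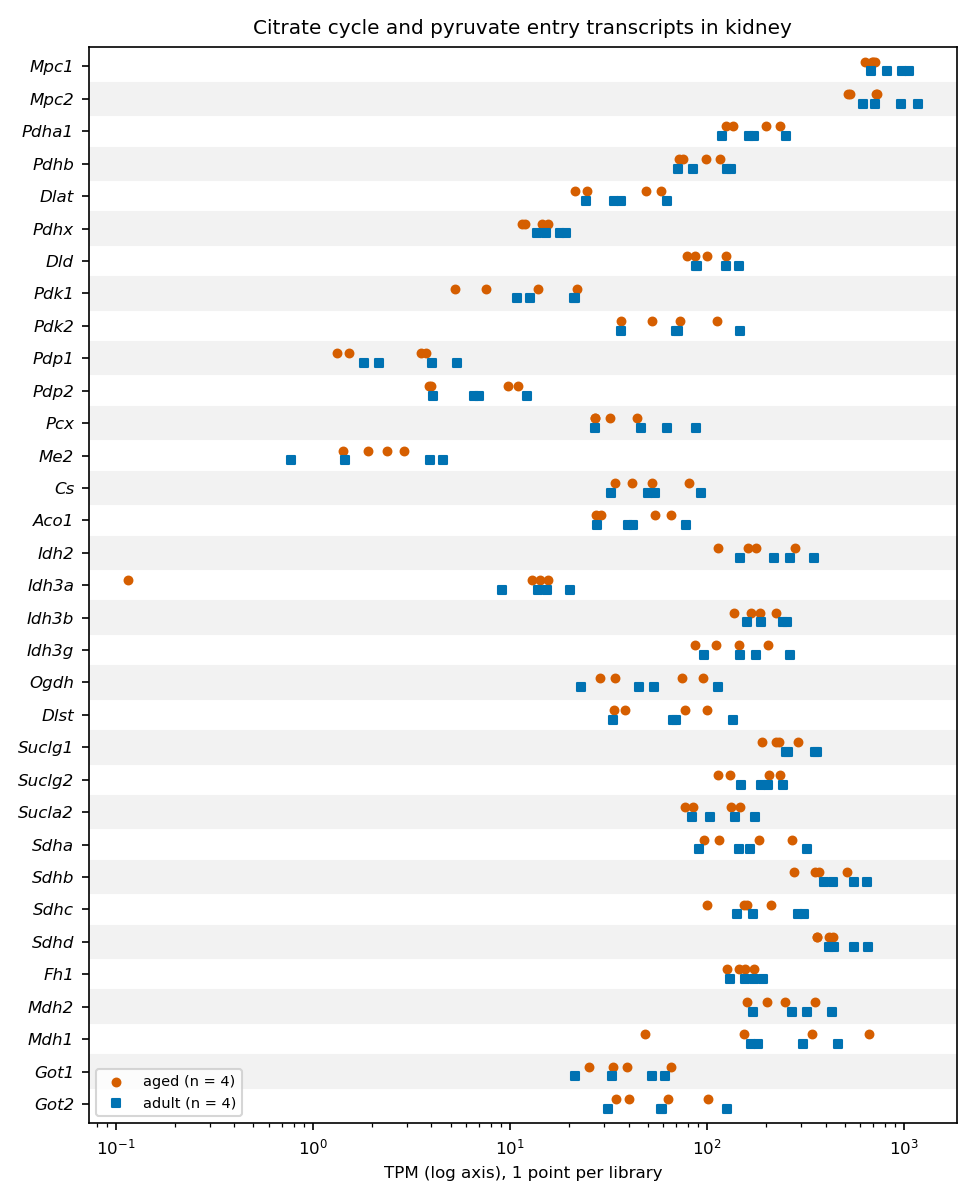
TPM of each of the 33 transcripts on a log axis, with 1 point per library, circles for the 4 aged and squares for the 4 adult kidneys. The mitochondrial pyruvate carrier transcripts Mpc1 and Mpc2 sit highest, Me2 and Pdp1 lowest, the groups overlap for every gene, and 1 aged library has Idh3a at 0.116 TPM.

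Age was compared with limma on log2(TPM + 1) over 11796 genes with a mean of at least 1 TPM, and no citrate cycle or pyruvate entry gene passed. On the scale as deposited, 32 of the 33 members had a negative fold change in aged kidneys, with a median of −0.24 on the log2(TPM + 1) scale. The background was also low: 65% of all genes tested were negative and their median was −0.11. Among genes averaging 5 TPM or more, 30 of 31 members and 72.4% of all genes were negative, with medians of −0.24 and −0.15. An adjusted p under 0.05 was reached by 0 of 33 members and by 0% of all genes, and every member had a limma adjusted p of 1.00. Without adjustment, 0 of 33 members and 3.39% of all genes had a p under 0.05. The aged and adult libraries did not overlap for 0 of 33 members and for 2.46% of all genes.

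How low the members were depended on the scale. With size factors 26 of 33 were lower, with a median of −0.14, while 52.7% of all genes were lower, with a median of −0.02. Quantile normalization left 18 of 33 lower (median −0.01), where 48.8% of all genes were (median 0.01). With the mitochondrially encoded genes removed and TPM rescaled, 15 of 33 were lower and the median was 0.06, against 30.4% and 0.15 for all genes. The members' median lay below that of all genes on each of these scales. The deposited median was −0.04 without adult replicate 1, −0.08 without aged replicate 3, −0.14 without aged replicate 1, and −0.37 without either aged replicate 2 or adult replicate 3. The test did not model the Y-linked split. With the split as a term, 4 of 33 members had an unadjusted p under 0.05 for age, against 8.46% of all genes, and 0 had an adjusted p under it. Those members were Sdhc, Pdk1, Suclg1 and Sdhb, named after their values were seen, with unadjusted limma p of 0.0301, 0.0377, 0.0389 and 0.0426.

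**Figure D2:**
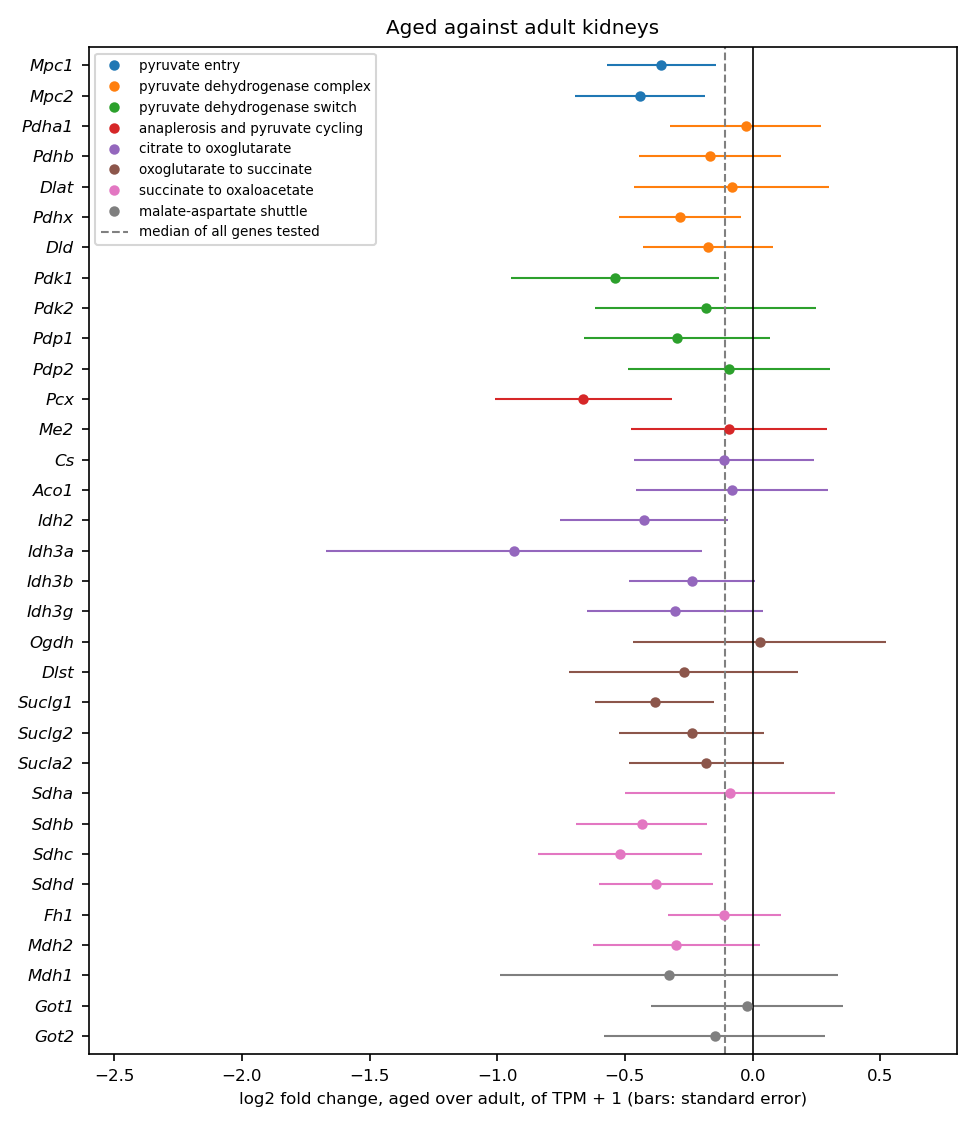
Log2 fold change of aged over adult kidneys on the log2(TPM + 1) scale for each member, coloured by role, with bars of 1 standard error from limma (4 aged and 4 adult libraries). On this scale, as deposited, Ogdh is the only point above 0, and the dashed line is the median of all genes tested, −0.11.

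Pyruvate entry was led by the carrier, whose transcripts were the most abundant of the set. Mpc1, on chromosome 17 at 8282904 to 8297661 (GRCm38), had 693, 631, 713 and 692 TPM in aged kidneys, against 678, 1065, 982 and 822 TPM in adult kidneys. Its partner Mpc2 had 729, 533, 722 and 522 TPM in aged kidneys, against 622, 966, 1171 and 709 TPM in adult kidneys. The aged libraries were close together for Mpc1, and adult replicate 1 was the low adult library for both genes. For Mpc1 it alone overlapped the aged libraries, and for Mpc2 adult replicate 4 did so as well. The log2 fold changes were −0.36 (SE 0.21) for Mpc1 and −0.44 (SE 0.26) for Mpc2, and neither passed. The carrier works as a heterodimer, and Mpc1 over Mpc2 stayed between 0.839 and 1.32 in the 8 libraries.

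The pyruvate dehydrogenase complex followed at lower levels, and its subunits differed widely in abundance. Pdha1, the X-linked alpha subunit of the decarboxylase, had 136, 236, 124 and 199.7 TPM in aged kidneys, against 253, 174, 119 and 164 TPM in adult kidneys. Pdhx, the protein that tethers dihydrolipoyl dehydrogenase to the core, had 12.0, 14.5, 11.5 and 15.6 TPM in aged kidneys, against 19.2, 18.03, 13.7 and 15.2 TPM in adult kidneys. Both genes overlapped fully or in large part between the groups, with log2 fold changes of −0.03 (SE 0.30) and −0.28 (SE 0.24). Between them lay the beta subunit Pdhb, the acetyltransferase Dlat and the dehydrogenase Dld, which averaged 90.8, 38.3 and 98.0 TPM in aged kidneys, against 104, 39.4 and 112 TPM in adult kidneys. The fold changes of all 5 subunits were negative on the deposited scale (median −0.17), but Pdha1 was positive with size factors (0.0755), quantile normalization (0.25) and mitochondrial genes removed (0.27).

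The switch enzymes of the complex were scarcer, apart from Pdk2. The kinase Pdk2 had 52.9, 113, 36.6 and 73.2 TPM in aged kidneys, against 148, 71.5, 36.5 and 69.8 TPM in adult kidneys. Pdk1, a kinase known as a target of the hypoxia-inducible factor and located on chromosome 2 at 71873224 to 71903858, had 13.8, 21.8, 5.27 and 7.57 TPM in aged kidneys, against 21.1, 21.5, 12.7 and 10.9 TPM in adult kidneys. The phosphatase Pdp1, on chromosome 4 at 11958184 to 11966452, had 3.56, 3.74, 1.52 and 1.33 TPM in aged kidneys, against 4.02, 5.42, 2.17 and 1.82 TPM in adult kidneys. For Pdk1 and Pdp1, replicates 1 and 2 were the high libraries in both age groups, and for Pdk2 they were aged replicate 2 and adult replicate 1. The log2 fold changes were −0.18 (SE 0.43) for Pdk2, −0.54 (SE 0.41) for Pdk1 and −0.30 (SE 0.36) for Pdp1. The other phosphatase, Pdp2, averaged 7.15 ± 3.75 TPM in aged and 7.47 ± 3.42 TPM in adult kidneys (SD, n = 4 each). Pdk2 exceeded Pdk1 in every library, by 2.88-fold to 9.66-fold.

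Pyruvate carboxylase had the smallest unadjusted p of the 33 members. Pcx, which makes oxaloacetate from pyruvate for refilling the cycle and for glucose synthesis, lies on chromosome 19 at 4510472 to 4621752. It had 27.0, 32.1, 27.2 and 44.2 TPM in aged kidneys, against 87.8, 27.0, 46.1 and 62.4 TPM in adult kidneys. Of the adult libraries, 3 lay above all aged ones and adult replicate 2 was as low as the lowest aged ones. The log2 fold change was −0.66 (SE 0.35), and 3.62% of the genes tested had a lower one. Taken within the Y-linked split, it was −0.61 where these transcripts were present and −0.71 where they were near 0. Leaving out adult replicate 1 gave −0.41, and leaving out adult replicate 2 gave −0.96. Me2, the mitochondrial malic enzyme that returns malate to pyruvate, had 2.39, 2.90, 1.42 and 1.90 TPM in aged kidneys, against 4.58, 3.94, 0.771 and 1.46 TPM in adult kidneys. The adult libraries of Me2 spanned the aged ones on both sides (log2 fold change −0.09, SE 0.38).

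From citrate to oxoglutarate, Idh2, Idh3b and Idh3g were the most abundant transcripts. Idh2, the NADP-dependent mitochondrial enzyme that supplies reducing power for glutathione, had 161, 279, 113 and 178 TPM in aged kidneys, against 348, 263, 148 and 219 TPM in adult kidneys. The groups overlapped, with aged replicate 2 above 3 of the adult libraries (log2 fold change −0.43, SE 0.33). Citrate synthase Cs and the cytosolic aconitase Aco1, which doubles as an iron regulatory protein, averaged 52.3 ± 20.6 and 44.2 ± 19.0 TPM in aged kidneys, against 57.5 ± 25.4 and 46.8 ± 21.7 TPM in adult kidneys (SD, n = 4 each).

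The NAD-dependent isocitrate dehydrogenase, built from a catalytic alpha subunit with beta and gamma subunits, was unequal at the transcript level. Its alpha subunit gene Idh3a, on chromosome 9 at 54586334 to 54604661, had 15.6, 13.0, 14.2 and 0.116 TPM in aged kidneys, against 20.2, 15.4, 9.09 and 13.96 TPM in adult kidneys. Aged replicate 4 was almost without Idh3a, while the other 3 aged libraries lay within the adult range. The log2 fold change was −0.94 (SE 0.74), and without aged replicate 4 it was 0.0065. Idh3b and Idh3g averaged 179 ± 36.6 and 137 ± 50.6 TPM in aged kidneys, against 211 ± 45.3 and 171 ± 69.8 TPM in adult kidneys (SD, n = 4 each). Aged replicate 4 was not low for either, with 185 TPM of Idh3b and 145 TPM of Idh3g. Idh3a was at most 0.103 of Idh3b in any library.

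From oxoglutarate to succinate, Ogdh was the only member with a positive fold change on the deposited scale, where 7, 15 and 18 members were positive with size factors, quantile normalization and mitochondrial genes removed. Ogdh, the decarboxylase of the oxoglutarate dehydrogenase complex, had 34.0, 95.7, 28.8 and 74.4 TPM in aged kidneys, against 114, 45.5, 22.8 and 54.0 TPM in adult kidneys. Each group held high and low libraries (log2 fold change 0.03, SE 0.50). Its mean TPM was 58.2 in aged and 59.2 in adult kidneys, and the log2 fold change was −0.27 without aged replicate 2 and −0.34 without adult replicate 3. Suclg1, the alpha subunit shared by both succinyl-CoA synthetases, had 233, 290.3, 189 and 223 TPM in aged kidneys, against 362, 353, 252 and 258 TPM in adult kidneys. All aged libraries of Suclg1 but replicate 2 lay below all adult ones (log2 fold change −0.38, SE 0.23). The ATP-forming beta subunit Sucla2 and the GTP-forming one Suclg2 averaged 110.3 and 172 TPM in aged kidneys, against 125 and 197 TPM in adult kidneys, and Suclg2 exceeded Sucla2 in every library.

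The core succinyltransferase Dlst sits in the same complex as Ogdh. It had 38.3, 99.9, 33.7 and 77.8 TPM in aged kidneys, against 136, 67.5, 33.3 and 70.0 TPM in adult kidneys, which overlap. The ratio Dlst over Ogdh was 1.13, 1.04, 1.17 and 1.05 in aged kidneys, against 1.19, 1.49, 1.46 and 1.30 in adult kidneys. All aged libraries were below all adult ones for this ratio, the only one of 16 partner ratios looked at whose groups did not overlap. The 16 ratios were picked after the levels had been seen, so the difference is a description and was given no test. The gap was narrow, from 1.17 to 1.19, and the share of other gene pairs without overlap was not counted. Pcx over Pdha1 overlapped between the groups, at 0.136 to 0.221 in aged kidneys and 0.155 to 0.387 in adult kidneys. Adult replicate 2, the lowest adult library, lay below every aged library but replicate 2, and the other adult libraries lay above all aged ones.

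**Figure D3:**
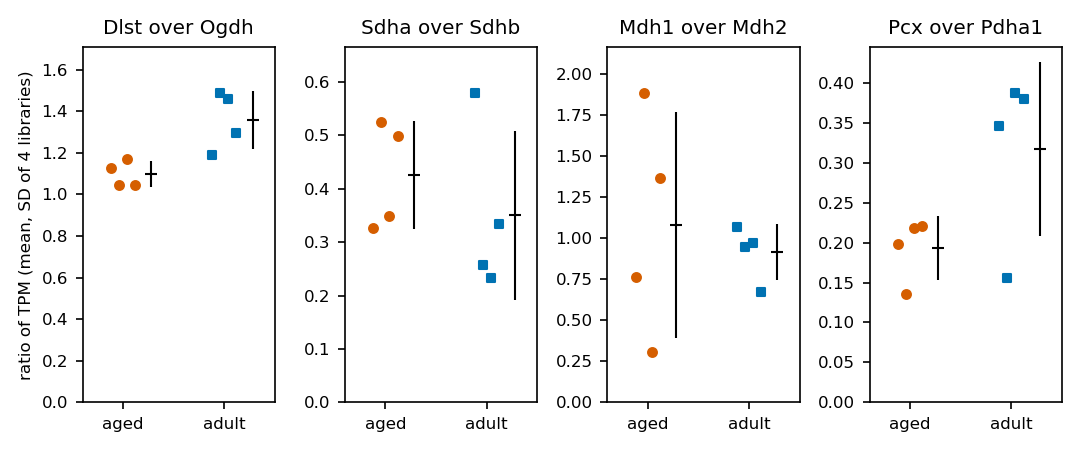
Ratio of TPM between 2 partner transcripts in each library for 4 of the 16 ratios, aged left and adult right, with the mean and SD of 4 libraries beside the points. The groups do not overlap, by a narrow gap, for Dlst over Ogdh (1.04 to 1.17 in aged, 1.19 to 1.49 in adult). The share of other gene pairs without overlap was not counted. Mdh1 over Mdh2 spreads from 0.305 to 1.88 among aged kidneys.

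Succinate dehydrogenase, which is also complex II of the respiratory chain, had its other 3 subunits above the flavoprotein subunit on average over the 8 libraries. Sdhd, a membrane anchor, had 437, 414, 360.3 and 363 TPM in aged kidneys, against 443, 659, 560 and 414 TPM in adult kidneys. Sdhc, the other anchor, on chromosome 1 at 171127165 to 171150603, had 159, 212, 99.7 and 155 TPM in aged kidneys, against 309.9, 291, 143 and 172 TPM in adult kidneys. Aged values of both anchors lay mostly at the low end of the adult range, with overlap (log2 fold changes −0.38, SE 0.22, and −0.52, SE 0.32). The iron-sulfur subunit Sdhb averaged 378 ± 98.7 TPM in aged and 508.5 ± 116 TPM in adult kidneys (SD, n = 4 each). The flavoprotein Sdha averaged 166 ± 78.3 TPM in aged and 181 ± 99.8 TPM in adult kidneys (SD, n = 4 each), and Sdha over Sdhb ran from 0.232 to 0.579 over the 8 libraries.

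Fumarase and the malate dehydrogenases close the cycle. Fh1, the fumarase gene, had 156, 174, 127 and 145 TPM in aged kidneys, against 192, 173, 132 and 157 TPM in adult kidneys. It had the smallest ratio of highest to lowest library of all members, 1.51-fold, and its groups overlapped almost fully (log2 fold change −0.11, SE 0.22). The mitochondrial malate dehydrogenase Mdh2 averaged 241 ± 83.8 TPM in aged and 299 ± 109 TPM in adult kidneys (SD, n = 4 each).

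In the malate-aspartate shuttle, the cytosolic malate dehydrogenase had the highest coefficient of variation of the 33 members over the 8 libraries, 68.6%. Mdh1, on chromosome 11 at 21556787 to 21572367, had 154, 667, 48.6 and 341 TPM in aged kidneys, against 463, 306, 167 and 181 TPM in adult kidneys. The highest and the lowest library were both aged, 13.7-fold apart. The mean was 303 TPM in aged and 279 TPM in adult kidneys, while the log2 fold change had the other sign (−0.33, SE 0.66), and without aged replicate 3 it was 0.35. Got1, the cytosolic aspartate aminotransferase, had 33.5, 65.6, 25.2 and 39.1 TPM in aged kidneys, against 61.2, 52.6, 21.5 and 33.2 TPM in adult kidneys. Its groups overlapped fully (log2 fold change −0.02, SE 0.38). The mitochondrial enzyme Got2 averaged 60.1 ± 30.5 TPM in aged and 68.8 ± 40.4 TPM in adult kidneys (SD, n = 4 each).

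Most members shared 1 order of libraries within each age group, and all genes tended to it too. Aged replicate 2 was the highest aged library for 27 of 33 members, against 61.9% of all genes tested, and adult replicate 1 the highest adult library for 27 of 33, against 66.7%. Aged replicate 3 was the lowest aged library for 26 members (69.2% of all genes) and adult replicate 3 the lowest adult library for 27 (66.6%). The lowest and highest library of a member differed by a median of 2.93-fold, against 3.004-fold over all genes. Among members highest in both of these libraries, the ratio of highest to lowest library was largest for Mdh1, Me2, Ogdh, Dlst, Pdk2 and Got2, named after their values were seen.

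In all, 24 members were highest in both aged replicate 2 and adult replicate 1. Pcx, Pdhx and Idh3a were highest in another aged library, Pdk1, Pdp1 and Sdhb in another adult library, and Mpc1, Mpc2 and Sdhd in another library of both groups. Adult replicate 1 was in fact the lowest adult library for Mpc1 and Mpc2. Mpc1, Mpc2 and Sdhd have short transcripts, of 958, 1025 and 1231 bases, where the members' median is 2530 bases. Of the 6 members with transcripts under 1500 bases, Idh3g (1331 bases) and Mdh2 (1456 bases) followed the common order in both groups, and Sdhb (1142 bases) did so among aged libraries. Each library's trend of log2 level with transcript length was −0.0047, 0.0981, 0.0100 and 0.0630 per doubling of length in aged kidneys, against 0.0649, −0.0876, −0.130 and −0.0138 in adult kidneys. It was highest in aged replicate 2 and adult replicate 1, and lowest in aged replicate 1 and adult replicate 3. The summed proximal tubule markers had 1157, 3473, 1111 and 2478 TPM in aged kidneys, against 3844, 1501, 1357 and 2367 TPM in adult kidneys. Their highest libraries were aged replicate 2 and adult replicate 1 as well. The same held for the sums of thick ascending limb, distal convoluted tubule, intercalated cell and podocyte markers. Principal cell, endothelium, smooth muscle, red cell, macrophage, lymphocyte, adipocyte and urothelium sums were not highest in both of these libraries. The part of transcript length or cell makeup in the members' order was not tested. With the length trend removed, 32 of 33 members were lower in aged kidneys, with a median of −0.22, but Ogdh was then among them (−0.0247) and Got1 was not (0.0097).

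**Figure D4:**
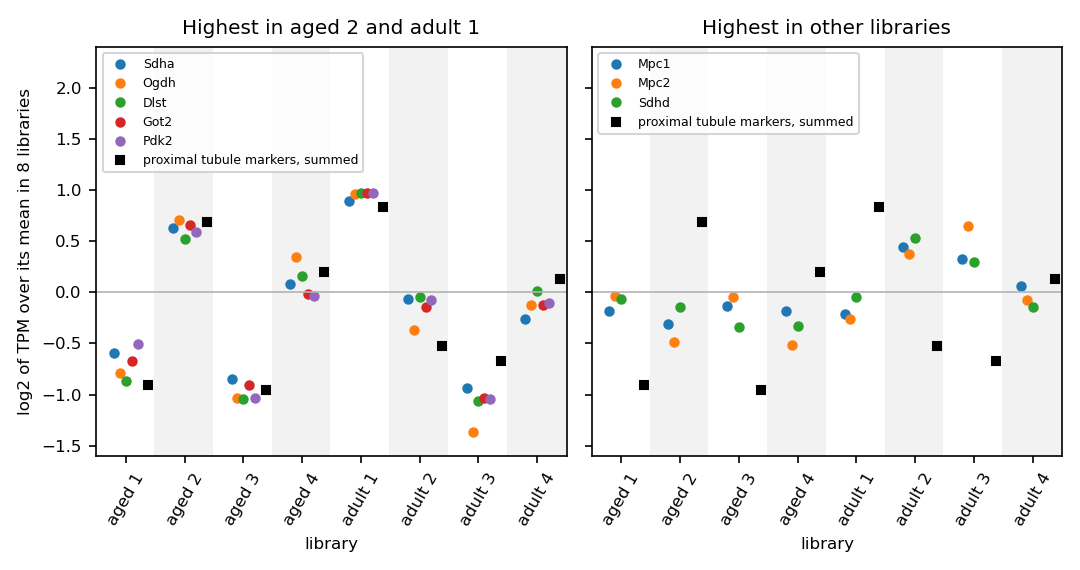
Log2 of each library's TPM over its mean in 8 libraries, with the summed proximal tubule markers as squares. The left panel shows 5 of the 24 members highest in aged replicate 2 and adult replicate 1, picked with their values known. The right panel shows the 3 highest in neither. In the left panel these 5 members lie near the markers in most libraries. Others of the 24 are not drawn, among them Fh1, whose highest and lowest library differed only 1.51-fold. In the right panel Mpc1, Mpc2 and Sdhd lie below the markers in aged replicate 2 and adult replicate 1.

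Start-site sequences were looked at because so many members moved together. They are stretches within the 150 bases before a RefSeq start (GRCm38.p6) that no GENCODE exon covers, shown for Pdk2, Ogdh and Cs, which followed the common order, and for Mpc1, which did not. Capitals mark GGGCGG (Sp1), CCAAT and ACGTG (the core of the hypoxia response element), each on either strand. CACGTG holds ACGTG on both strands.
Pdk2 (chr11:95041372-95041521, minus strand): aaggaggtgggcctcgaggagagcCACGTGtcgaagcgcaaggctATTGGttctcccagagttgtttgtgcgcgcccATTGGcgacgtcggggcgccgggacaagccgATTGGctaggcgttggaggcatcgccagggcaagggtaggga
Ogdh (chr11:6291447-6291596, plus strand): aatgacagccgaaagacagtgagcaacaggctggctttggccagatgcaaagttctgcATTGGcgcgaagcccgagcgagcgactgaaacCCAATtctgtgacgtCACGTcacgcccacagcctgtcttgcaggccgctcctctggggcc
Cs (chr10:128337577-128337726, plus strand): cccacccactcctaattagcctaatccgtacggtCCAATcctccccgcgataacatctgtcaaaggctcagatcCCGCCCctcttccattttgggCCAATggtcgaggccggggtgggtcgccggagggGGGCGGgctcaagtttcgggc
Mpc1 (chr17:8283637-8283761, plus strand): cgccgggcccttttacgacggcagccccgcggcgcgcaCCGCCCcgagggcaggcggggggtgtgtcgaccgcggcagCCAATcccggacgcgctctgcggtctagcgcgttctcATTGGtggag

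The CCAAT letters stand in all 4 of these stretches, in Mpc1 as in the other genes. Pdk2, Ogdh and Mpc1 had stretches at other starts, which are not shown. Those of Pdk2 and Mpc1 and the last of Ogdh hold no CCAAT, while the remaining ones of Ogdh hold it. Windows from 250 bases before to 50 bases after the start were given for 29 of the 33 members. GGGCGG was found for 20 of the 29 (69.0%), against 38.2% of 27025 genes with a window, and CCAAT for 18 (62.1%), against 41.1%. ACGTG was found for 8 of 29 (27.6% against 21.8%) and AAGGTCA, the half-site of estrogen-related receptors, for 3 (10.3% against 5.38%). The full palindromic NRF1 motif was in the windows of 0 of the 29 members and of 1.07% of genes. The background covers all genes with a window, expressed in kidney or not, and the share among expressed genes was not counted. A gene counted if any of its windows matched. The 29 members had 38 windows, and the 27025 genes had 32851. A match is a description of letters, not of binding.

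The split by Y-linked transcripts, which the labels do not name, gave calls where age gave 0. With age in the model, 4 of 33 members were called lower in the libraries with Y-linked transcripts (limma adjusted p under 0.05), and 0 higher. The background was 11.3% of all genes called lower and 1.13% called higher, or 12.4% in either direction, so the members' share was close to it. Summed markers of 5 cell types were also lower in every library with Y-linked transcripts than in any without them. The sums with and without were 204 to 415 and 799 to 1677 TPM for thick ascending limb, 51.1 to 128 and 136 to 363 TPM for distal convoluted tubule, and 49.0 to 109 and 121 to 253 TPM for principal cells. They were 31.4 to 55.5 and 70.0 to 82.8 TPM for intercalated cells, and 24.6 to 73.4 and 77.3 to 125 TPM for macrophages. Each thick ascending limb marker separated in this way by itself, but not every marker of the other lists did. Slc12a3, Aqp3, Slc4a1, Adgre1, Cd68 and Csf1r were among those that overlapped between the classes. The sums of the other lists overlapped between the classes: proximal tubule, podocyte, endothelium, smooth muscle, red cell, lymphocyte, adipocyte and urothelium. On the deposited scale 89.2% of all genes tested were lower with Y-linked transcripts. Genes at 1 TPM or more numbered 10663 to 11428 in libraries with and 11802 to 12293 in libraries without Y-linked transcripts. The part of any of these in the members' values was not tested. Pdk1 averaged 9.10 ± 3.31 TPM in the 4 libraries with and 19.6 ± 3.81 TPM in the 4 without Y-linked transcripts (SD), a log2 difference of −1.07 (SE 0.22, limma adjusted p = 0.0197). Pdp1 averaged 1.71 ± 0.367 and 4.19 ± 0.844 TPM in the libraries with and without them (log2 difference −0.93, SE 0.19, limma adjusted p = 0.0174). For both genes the libraries with and without Y-linked transcripts did not overlap. The same held for Me2, which averaged 1.39 ± 0.464 TPM with and 3.45 ± 0.991 TPM without them (−0.89, SE 0.25, limma adjusted p = 0.0457). Sdhc averaged 142 TPM in libraries with and 243 TPM in those without them, with some overlap (−0.75, SE 0.20, limma adjusted p = 0.0443). The share of all genes whose classes did not overlap was not counted. Between the classes, 10 of 33 members and 38.9% of all genes had an unadjusted limma p under 0.05.

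These calls did not hold on every scale. As deposited, the median of all genes was −0.46 with against without Y-linked transcripts, and that of the members −0.48. With size factors, where all genes had a median of 0.01 and 2.48% were called lower, 0 of 33 members passed, and the log2 differences were −0.54 for Pdk1, −0.52 for Pdp1, −0.51 for Me2 and −0.18 for Sdhc. Without aged replicate 2 or aged replicate 3, 0 members passed, while calls over all genes numbered 401 and 400, against 1464 with every library. The log2 differences without aged replicate 2 and without aged replicate 3 were −0.89 and −0.92 for Pdk1, −0.92 and −0.96 for Pdp1, −0.94 and −0.93 for Me2, and −0.70 and −0.66 for Sdhc. Age effects that differ between the classes were tested as an interaction, and 0 of 33 members passed. At an unadjusted p under 0.05 there were 0 members and 2.08% of all genes.

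**Figure D5:**
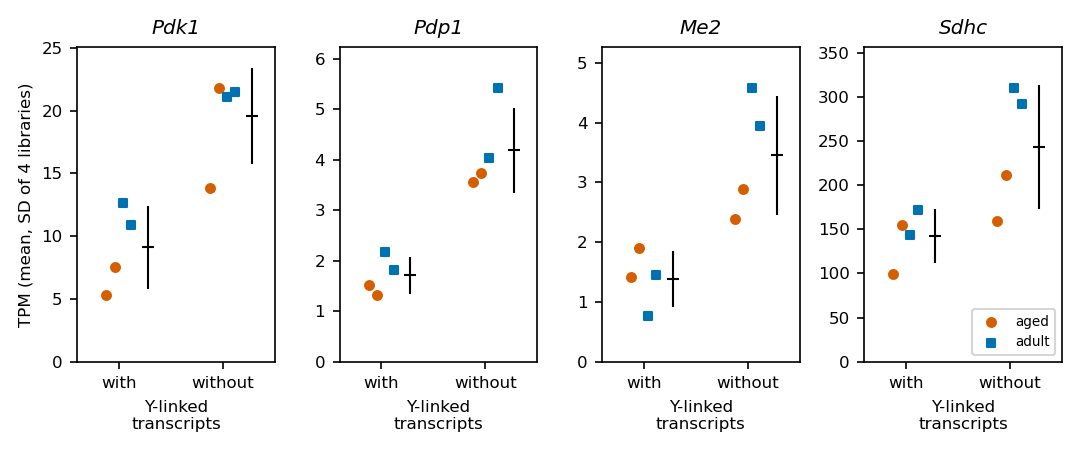
TPM of the 4 members called between libraries with and without Y-linked transcripts, with circles for aged and squares for adult kidneys and the mean and SD of 4 libraries beside the points. Pdk1, Pdp1 and Me2 lie lower in all 4 libraries with Y-linked transcripts than in any without them, and Sdhc overlaps. The share of all genes that separate in this way was not counted.

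A list of other genes of pyruvate, lactate, glutamate and citrate handling was compared in the same fit. Of 37 listed genes 34 were tested, 27 were lower and 7 higher in aged kidneys, the median was −0.16, and 0 had a limma adjusted p under 0.05. Of all genes tested, 65% were lower and 0% had such an adjusted p, and their median was −0.11. Gpt, the cytosolic alanine aminotransferase, had 3.59 ± 1.71 TPM in aged and 1.66 ± 0.865 TPM in adult kidneys (SD, n = 4 each, log2 fold change 0.79). It was the only one of the 34 with an unadjusted limma p under 0.05, which 3.39% of all genes tested had. Lactate dehydrogenase A, Ldha, had the next smallest p, at 252 ± 61.9 TPM in aged and 355 ± 72.7 TPM in adult kidneys (log2 fold change −0.50). Among those that followed were the oxoglutarate-malate carrier Slc25a11 at 77.4 and 103.5 TPM in aged and adult kidneys, the malic enzyme Me3 at 25.7 and 36.2 TPM, and the acetyl-CoA synthetase Acss1 at 48.1 and 73.6 TPM. None of these passed. Between the Y-linked classes, 5 of the 34 were called lower with Y-linked transcripts (Me3, Pkm, Acss1, Gpt2 and the kinase Pdk4) and 1 was called higher (Ldhd), named after their values were seen. The shares of all genes tested were 11.3% called lower and 1.13% called higher.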

How the data were processed

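Per the labels' protocols, RNA was isolated with a Qiagen kit, and strand-specific libraries were built from its polyadenylated fraction. The authors deposited TPM for 30153 mouse gene identifiers in 8 libraries. GRCm38, DESeq2 and kallisto are named in the submitters' processing notes, and which step made the TPM is not given in the sources used here. Each column's name gave its sample. Symbols were found for 29732 identifiers (98.6%), and 7 rows that shared a symbol were summed. Lengths and coordinates came from GENCODE M21 (GRCm38), using the longest principal coding transcript (99.5% of genes tested).

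The comparison of aged with adult libraries used limma 3.58.1 (R 4.3.3) on log2(TPM + 1), with a variance trend, for genes averaging 1 TPM or more, and Benjamini-Hochberg adjustment over all 11796 genes and a threshold of 0.05. Replicates are separate animals. Fold changes on this scale understate the change of low genes. The script was tested on simulated data with independent noise for each gene. Over 10 runs it called 16.9% of the genes changed 2-fold and 74.9% of those changed 4-fold. The 0 calls for age therefore do not show that a member was unchanged. Libraries were also split at 10 TPM of the sum of the Y-linked genes Uty, Eif2s3y, Kdm5d and Ddx3y, which is no study group. Genes sharing at least 0.5 of their 31-base words with a member were found for 4 members and held at most 0.358% of the TPM of both in any library.

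Members, lists and tests were chosen with earlier results of these data known. Values in all libraries are given for members called between the Y-linked classes, for the lowest and highest of each role and for Dlst, chosen after its values were seen, and up to 6 neighbouring genes with the smallest p are named, of which 1 is not reported here. Alternatives were other pseudocounts, filters, scalings and limma settings, the replicate number as a block, the Y-linked split, each library left out and, added after the data were seen, removal of the length trend.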

Additional observations from a re-analysis of the deposited data

Results flagged for a closer look

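Idh3a in aged replicate 4 lay far from the other aged libraries, at 0.116 TPM, where the nearest was 13.0 TPM. Its gap to the nearest was 0.831 of the group's range, just past Dixon's critical value for 4 samples. This was 1 of 72 groups of 4 examined, and chance flags about 1 in 20. The library had 185 TPM of Idh3b and 145 TPM of Idh3g, within the range of the other aged libraries.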

How the results depend on the processing

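The count of members called for age was 0 under all 23 alternatives, and between 0 and 0 with a library left out. With each library left out, the members' median for age lay between −0.37 and −0.04, and that of all genes between −0.24 and 0.04. Of the 23 alternatives, only the removal of mitochondrial genes made the members' median positive (0.06). The 4 members called between the Y-linked classes became 0 with size factors or quantile normalization, 2 with no filter, with only genes averaging 5 TPM or more, or with mitochondrial genes removed, and 17 with array weights, and between 0 and 6 with a library left out: 0 without aged replicate 2 or 3, 1 without adult replicate 4, 2 without adult replicate 1, 2 or 3, 5 without aged replicate 1 and 6 without aged replicate 4. Calls over all genes moved too: 1464 of 11796 in the comparison as reported and 4291 of 11796 with array weights. They were 2048 of 11805 without aged replicate 4, 401 of 11718 without aged replicate 2 and 400 of 11895 without aged replicate 3. With size factors 640 and with quantile normalization 636 of 11796 were called. The calls were 762 of 20354 with no filter, 1063 of 7389 at 5 TPM or more and 677 of 12539 with mitochondrial genes removed. The cause was not tested.

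Of the 18 members chosen by the naming rule, 10 kept the sign of their age fold change under every alternative. The others turned, with size factors for Pdha1 (0.0755), Me2 (0.0126) and Got1 (0.0810). With quantile normalization this held for Pdha1 (0.25), Pdk2 (0.0351), Fh1 (0.18) and Got1 (0.18), and with mitochondrial genes removed for Pdha1 (0.27), Pdk2 (0.11), Me2 (0.14), Fh1 (0.19) and Got1 (0.27). Array weights turned Pdha1 (0.0759), Me2 (0.16), Mdh1 (0.22) and Got1 (0.13). In the 4 libraries with Y-linked transcripts Pdha1 (0.17), Pdk2 (0.0359), Me2 (0.34) and Got1 (0.22) were positive, and in the 4 without them Ogdh was −0.33. With the length trend removed Ogdh was −0.0247 and Got1 0.0097. Dlst, outside this tally, was 0.08 in the libraries with Y-linked transcripts and −0.62 in those without. With a library left out the ranges were −0.20 to 0.16 for Pdha1, −0.51 to 0.16 for Pdk2, −0.39 to 0.16 for Me2, −1.29 to 0.0065 for Idh3a, −0.34 to 0.42 for Ogdh, −0.90 to 0.35 for Mdh1 and −0.30 to 0.19 for Got1.

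The replicate numbers were not treated as pairs in the main comparison. Same-numbered deviations correlated by 0.0380, 0.181, 0.486 and 0.415. Aged replicates 1 and 2 matched another number best, and aged replicates 3 and 4 matched their own. Replicate number also follows the Y-linked split in both age groups, so these correlations cannot settle whether the numbers pair animals. With the replicate block 0 members and 0 of all genes were called for age, as without it, and 2 members had an unadjusted p under 0.05, against 7.77% of all genes. TPM keep no depth, so precision at low levels such as Me2 and Pdp1 is unknown.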
